A study of Komagataella phaffii with 9 samples.

Results

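In the methylotrophic yeast *Komagataella phaffii*, 36 genes had higher transcript levels with extra *CRA1*, a Gal4-like regulator, and lower levels without it, out of 5344 sequences quantified, of which 2216 reached the minimum count. A gene was taken if a strain averaged at least 20 estimated counts, if every overexpression library lay above and every deletion library below all control libraries in CPM (counts per 1000000 counts of the library), if mean overexpression CPM was at least 1.5 times the control mean, and if mean deletion CPM was at most 0.67 times the control mean. The rule was met by 52 genes, and 16 of them on a fixed list were left out. The list covers *CRA1* and loci around it on chromosome 1, a stretch of chromosome 2, the eGFP reporter and single loci. The single loci include most glycolytic genes, the thiamine genes *THI4*, *THI7*, *THI11* and *THI20*, and *PDC1*, *ADH2* and *PDB1*. Of the 36 genes, 27 carry a gene symbol in the study's annotation table and 9 are known by identifier only. The genes were chosen by their measured levels in both strains relative to the control, so those levels and ratios describe the set and test nothing. Both ratios use the same 3 control libraries.

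RNA was sequenced from 3 strains, each grown as 3 shake-flask cultures in M2 mineral medium with 5 g/L glucose and sampled in exponential growth. All strains derive from CBS 7435 and, by the study's methods, carried an eGFP gene driven by the promoter of glyceraldehyde-3-phosphate dehydrogenase (the *GAP* promoter) as a reporter. Control carried no change of the regulator, OE carried an overexpression cassette of the Gal4-like gene now named *CRA1*, and Δ*cra1* (labelled Δgal4-like) had that gene removed with a split marker cassette. Each strain was 1 representative transformant, so the 3 libraries of a strain are cultures of 1 clone and their spread does not cover differences between transformants. The precultures of all strains were grown with Zeocin.

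Gal4 of *Saccharomyces cerevisiae* is a zinc cluster activator that binds promoters of galactose genes. *K. phaffii* cannot use galactose, and its Gal4-like regulator was named for its part in the Crabtree phenotype, the formation of ethanol from glucose in the presence of oxygen. The genes described below act in glycolysis and sugar phosphate removal, vitamin supply, nitrogen and ion transport, RNA handling, signalling, membrane traffic and protein turnover. Roles given with a symbol are those known for the *S. cerevisiae* gene of that name, except where another species is stated.

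The 9 libraries held 106345 to 223824 counts, and the control libraries were the smallest. A count of 0 allows a transcript share of up to 0.00282% in the smallest and 0.00134% in the largest library. This limit, like the count intervals below, covers counting error only. Intervals given for ratios between strains belong to ratios that the rule selected, so they test no difference. *CRA1* itself had 11 counts in each control library and 0 counts in all Δ*cra1* libraries. It had 810, 95 and 316 counts in OE libraries 1, 2 and 3, so its counts follow the labels. The kanamycin marker had 0 counts in control, 19, 10 and 16 in OE and 1751, 1526 and 1679 in Δ*cra1* libraries. The source of its counts in OE was not tested. The OE libraries differed among themselves: transcripts of the mitochondrial genome took 0.446%, 0.0358% and 0.201% of OE libraries 1, 2 and 3, against 0.0301% to 0.0572% in control and 0.130% to 0.282% in Δ*cra1* libraries. The replicate numbers 1 to 3 are taken here only as names of the cultures. CPM and TPM, kallisto's analogous unit corrected for transcript length, are shares of a library, so a change in total RNA per cell is not seen in them.

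Together the 36 genes took 1.43% ± 0.0688 of the counts in control libraries, 3.81% ± 0.508 in OE libraries and 0.238% ± 0.0188 in Δ*cra1* libraries (SD, n = 3). Every OE share, from 3.23% to 4.15%, was above every control share, from 1.37% to 1.504%, and every Δ*cra1* share, from 0.216% to 0.249%, was below them. Without the abundant transcripts of *REV1* and *ENA2* the shares were 0.776% to 0.864% in control, 2.30% to 2.66% in OE and 0.191% to 0.217% in Δ*cra1* libraries. The rule fixes this order of the strains for the set and for any part of it, so the shares give sizes only. The median gene had 2.51 times the control CPM in OE, with a range of 1.51 to 16.6, and 3.22 times less CPM in Δ*cra1* than in control, with a range of 1.52 to 36.7. On the log2 scale the step on deletion was the larger one for 21 genes and the step on overexpression for 15 genes.

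**Figure D1:**
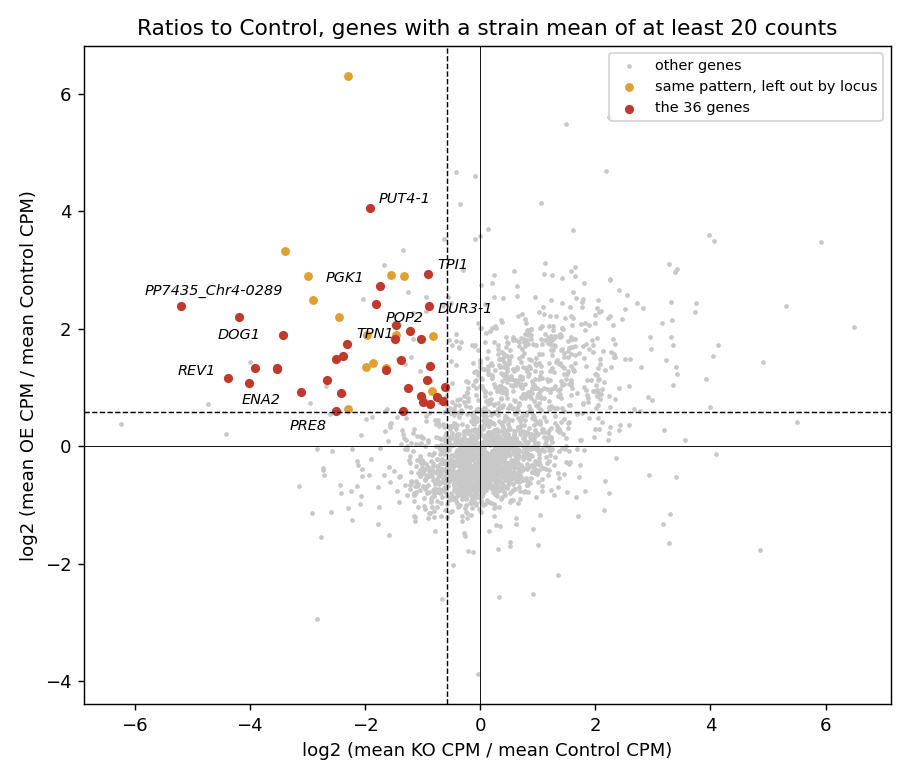
Ratio of mean OE to mean control CPM (y axis, log2) against ratio of mean Δ*cra1* (KO) to mean control CPM (x axis, log2) for genes past the minimum count. Red points are the 36 genes, orange points are genes of the same pattern left out by locus, grey points are other genes, and the dashed lines mark ratios of 1.5 and 0.67. *PUT4-1* has the highest OE ratio of the 36 genes and PP7435_Chr4-0289 the lowest KO ratio.

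Every OE library lay above every control library for 14.8% of the 2216 genes, every Δ*cra1* library lay below for 20.4%, and both held for 2.8%, which for the 36 genes is fixed by the rule. In edgeR's quasi-likelihood test, adjusted by Benjamini-Hochberg over all genes tested, 28 of the 36 genes were called higher in OE than in control (adjusted p under 0.05 and at least 1 on the log2 scale), beside 7.15% of 1986, and 0 were called lower, beside 0.806%. In Δ*cra1* against control, 24 of the 31 genes tested were called lower, beside 8.53% of 2392, and 0 were called higher, beside 13.1%. Because the rule used the same contrasts, nothing is read from these counts. The genes *DOG1*, *PUT4-1*, *POP2*, *KSS1* and *BIO2* had too few counts in the deletion contrast to be tested. Calls were made in both contrasts for 19 genes and in neither for *YSH1*, *YHP1* and *HSL7*. The OE count of 28 fell to 13, 10 and 17 without control library 1, 2 or 3 and to 16 without OE library 3. Over all genes these fits called 58 of 2299, 40 of 2292, 68 of 2301 and 77 of 2111 higher in that order. All 36 genes kept a positive fitted change in each, which their choice by non-overlapping libraries largely fixed in advance.

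**Figure D2:**
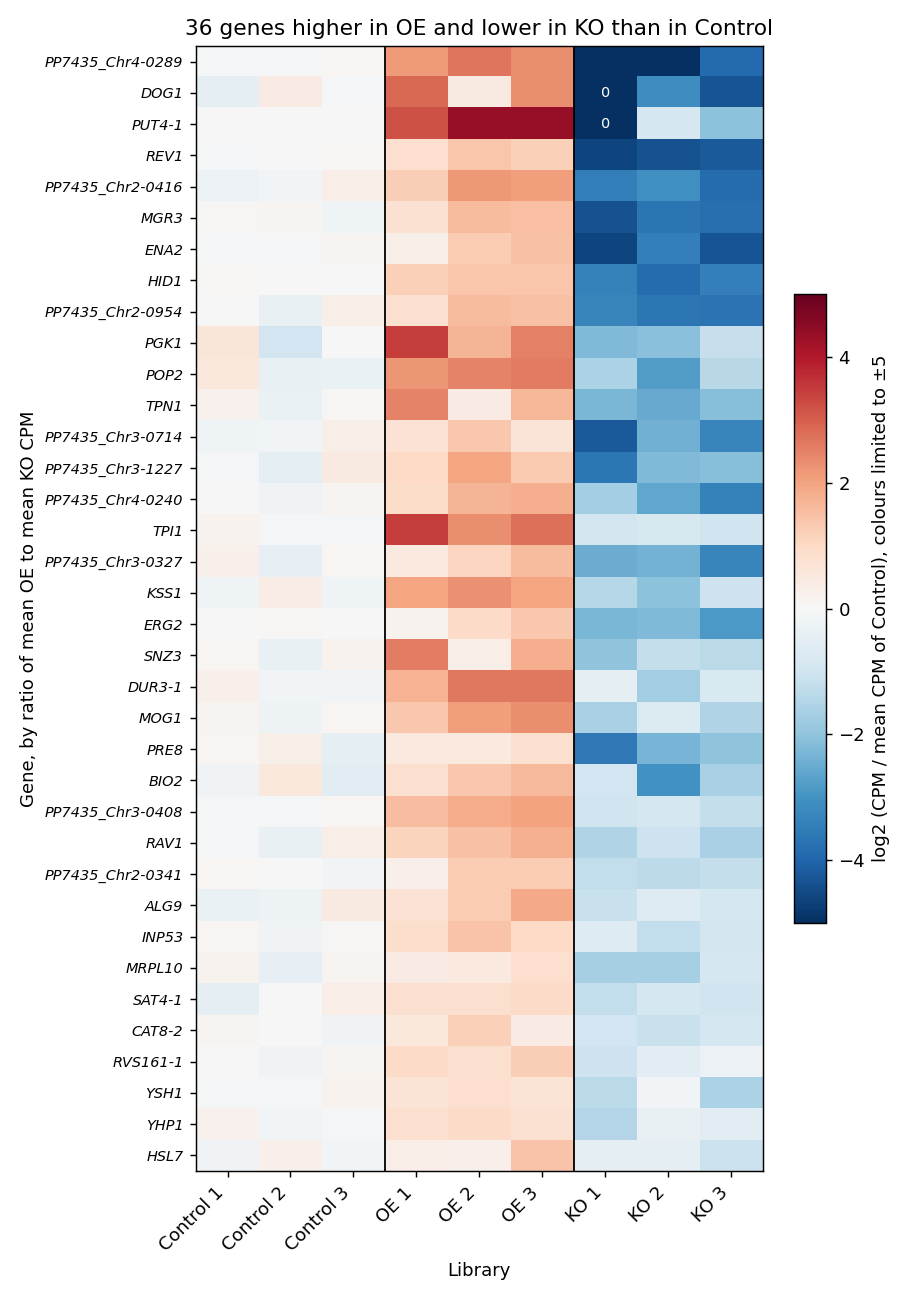
Level of each of the 36 genes (rows) in each of the 9 libraries (columns), as the log2 ratio of its CPM to its mean control CPM (red above, blue below, 0 in a cell for no counts). All OE columns are above and all Δ*cra1* (KO) columns below the control columns, as the rule demands, and in 5 genes OE library 1 is well above OE library 2.

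Glycolysis was represented by *PGK1* and *TPI1*. *PGK1* encodes 3-phosphoglycerate kinase, which makes ATP in lower glycolysis. Its transcript had 433, 147 and 282 CPM in the control libraries, 3121, 934 and 1661 CPM in the overexpression libraries and 62.3, 67.2 and 129.6 CPM in the Δ*cra1* libraries. The mean went from 86.3 ± 37.5 CPM in Δ*cra1* through 288 ± 143 CPM in control to 1905 ± 1114 CPM in OE, with the lowest OE library 2.15 times the highest control library and OE library 1 far above the other OE libraries. *TPI1* encodes triose phosphate isomerase, which interconverts the 3-carbon sugar phosphates. Its level was 101, 82.9 and 84.6 CPM without modification of the regulator, 978, 454 and 611 CPM on overexpression and 47.9, 51.7 and 44.7 CPM after deletion. The OE mean was 7.60 times the control mean, the largest OE ratio of the 36 after that of *PUT4-1*, while the control mean was only 1.86 times the Δ*cra1* mean. The counts behind this were low, at 11, 9 and 9 in control and 10 in each Δ*cra1* library, and the deletion step of *TPI1* was not called by edgeR.

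*DOG1*, a phosphatase that in *S. cerevisiae* removes the phosphate from 2-deoxyglucose-6-phosphate, was almost absent after deletion. It had 7, 13 and 9 counts in control cultures, 141, 14 and 63 counts in OE cultures and 0, 2 and 1 counts in Δ*cra1* cultures, which is 64.5, 119.8 and 84.6 CPM in the control libraries, 659.8, 122 and 453 CPM in the overexpression libraries and 0, 10.3 and 4.47 CPM in the Δ*cra1* libraries. OE library 2 lay only just above the highest control library, and OE libraries 1 and 3 were far above it. Pooled over libraries, Δ*cra1* held 3 counts against 29 in control, a CPM ratio of 0.0534 with a 95% counting interval of 0.0104 to 0.172.

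Several genes of vitamin supply were among the 36, while the thiamine genes *THI4*, *THI7*, *THI11* and *THI20* met the rule but were left out by locus. *SNZ3*, a member of the gene family for pyridoxal phosphate (vitamin B6) synthesis, had 295, 212 and 310.3 CPM in control cultures 1 to 3, against 1605, 340.3 and 971 CPM with extra *CRA1* and 67.1, 119 and 107 CPM without it. The strains did not overlap, as the rule demands. OE library 2 exceeded the highest control library by little, and OE library 1 was 4.72 times OE library 2. *TPN1*, the plasma membrane transporter for pyridoxine, had 138, 92.1 and 122 CPM in the control libraries, 650.4, 157 and 373.9 CPM in the overexpression libraries and 24.0, 20.7 and 26.8 CPM in the Δ*cra1* libraries. It showed the same uneven OE libraries and an even drop on deletion, to 4, 5 or 6 counts per library. *BIO2*, the biotin synthase of the last step of biotin formation, rested on 8, 13 and 6 counts in control cultures, 31, 24 and 36 counts in OE cultures and 9, 2 and 6 counts in Δ*cra1* cultures. In CPM its means were 83.3 ± 32.7 CPM, 204 ± 57.1 CPM and 26.8 ± 16.4 CPM in control, OE and Δ*cra1*, and its lowest OE library was close to its highest control library. The M2 medium contained biotin in all cultures.

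*SNZ3* stands beside *SNO1* by locus number, while its annotation names *SNO3* as its coregulated partner gene. *SNO1* had 6, 3 and 8 counts in control, 94, 10 and 18 in OE and 21, 27 and 31 in Δ*cra1* libraries. Thus the neighbour was at 4.15 times the control CPM in OE and at 2.39 times in Δ*cra1*, where *SNZ3* was at 0.359 times.

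Transporters of nitrogen compounds were represented by *PUT4-1* and *DUR3-1*. *PUT4-1*, a proline permease, had 2, 2 and 2 counts in control cultures, 36, 43 and 53 counts in OE cultures and 0, 2 and 1 counts in Δ*cra1* cultures. All OE libraries were far above the others. Control and Δ*cra1* libraries were at or under 3 counts, so a ratio between those strains is not given. Δ*cra1* library 2 held the same count as each control library and was lower in CPM only through its larger total. The deletion step of *PUT4-1* was called in 0 of the 6 alternative fits that gave it an adjusted p-value. Its direction on deletion is thus not settled by these counts. Pooled OE counts were 132 against 6 in control, a CPM ratio of 15.2 with a 95% counting interval of 6.81 to 42.2. *DUR3-1*, a transporter of urea and polyamines, had 267, 203 and 207 CPM without modification of the regulator, 744, 1396 and 1409 CPM on overexpression and 163, 67.2 and 134 CPM after deletion. All OE libraries were at least 2.78 times the highest control library, whereas the highest Δ*cra1* library was 0.804 times the lowest control library. *PUT4-1* and *DUR3-1*, like *SAT4-1*, *CAT8-2* and *RVS161-1*, carry a number for one of several related genes. Their estimated counts, like those of all 36 genes, were whole numbers in all 9 libraries, so kallisto gave them no fractions of reads shared with other sequences.

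Apart from *DOG1*, the genes with more than 10 times as much CPM in control as in Δ*cra1* were *REV1*, *ENA2*, *MGR3*, *HID1* and 3 genes without a symbol. PP7435_Chr4-0289, annotated only as similar to the uncharacterized *S. cerevisiae* gene YGR017W, had 645, 645 and 715 CPM in the control libraries, 2929, 4249 and 3322 CPM in the overexpression libraries and 4.79, 5.17 and 44.7 CPM in the Δ*cra1* libraries. In counts the Δ*cra1* libraries held 1, 1 and 10, so the third of them was above the others, and pooled over libraries OE was 176 times Δ*cra1* with a 95% counting interval of 100.4 to 341. It also had the second highest level of the 36 genes in OE when corrected for transcript length, at 3232 TPM, against 562 TPM in control and 17.6 TPM in Δ*cra1*.

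*REV1*, a deoxycytidyl transferase that acts in DNA synthesis across damaged bases, took more counts than any other of the 36 genes. It had 3411, 3593 and 3724 CPM in control cultures 1 to 3, against 6378, 9345 and 8241 CPM with extra *CRA1* and 149, 176 and 192 CPM without it. The means were 3576 ± 157 CPM, 7988 ± 1499 CPM and 172 ± 22.0 CPM in control, OE and Δ*cra1* (SD, n = 3). That the strains do not overlap is fixed by the rule. The control mean was 20.8 times the Δ*cra1* mean, and the OE mean 2.23 times the control mean. By locus number *REV1* lies between *CDC19* (pyruvate kinase) and *ACS1* (acetyl-CoA synthetase), with *URK1* (uridine kinase) one locus further. *URK1* had 115, 144 and 135 counts in control and 12, 9 and 15 in Δ*cra1* libraries, a CPM ratio of 0.0468, and its OE ratio was 1.16. *CDC19* was at 5.82 times control CPM in OE and 0.676 times in Δ*cra1*, whereas *ACS1* was at 3.31 times control CPM in OE and 17.5 times in Δ*cra1*. Whether the kit kept strand is not given in the sources used here, so reads of a gene and an overlapping or antisense neighbour cannot be told apart.

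*ENA2*, a P-type ATPase that pumps sodium out of the cell, had 2268, 2322 and 2671 CPM in the control libraries, 2939, 5794 and 6651 CPM in the overexpression libraries and 101, 227 and 121 CPM in the Δ*cra1* libraries. OE library 1 was only slightly above the control libraries and libraries 2 and 3 were more than 2 times the highest of them, while the highest Δ*cra1* library was 0.1002 times the lowest control library. *MGR3*, a subunit of the protease complex that degrades misfolded proteins of the inner mitochondrial membrane, had 1014, 1078 and 856 CPM without modification of the regulator, 1652, 2923 and 2819 CPM on overexpression and 47.9, 77.5 and 71.5 CPM after deletion. The Δ*cra1* mean of *MGR3* was 0.0668 times the control mean. *HID1*, annotated by similarity to a *Scheffersomyces stipitis* gene as a putative protein of cell wall biogenesis, had 931, 884 and 875 CPM in control cultures 1 to 3, against 2054, 2338 and 2366 CPM with extra *CRA1* and 86.2, 62.0 and 84.9 CPM without it. Its libraries were even within each strain, with an OE mean of 2253 ± 172 CPM against 897 ± 30.2 CPM in control.

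PP7435_Chr2-0954 and PP7435_Chr2-0416 complete this group without a known function. PP7435_Chr2-0954 is annotated as a hypothetical protein that is not conserved, and with a length of 426 bases it is the shortest of the 36 transcripts. It had 572, 442 and 705 CPM in the control libraries, 1006, 1693 and 1596 CPM in the overexpression libraries and 57.5, 46.5 and 44.7 CPM in the Δ*cra1* libraries. Per length its level was the highest of the set, at 5387 TPM in OE, 2121 TPM in control and 181 TPM in Δ*cra1*. PP7435_Chr2-0416, similar to the uncharacterized *S. cerevisiae* gene YGR237C, had 212, 239.6 and 329 CPM without modification of the regulator, 608, 1160.5 and 1122 CPM on overexpression and 24.0, 31.0 and 17.9 CPM after deletion. Its control libraries did not overlap with either strain, as the rule demands, and the lowest OE library was 1.85 times the highest control library.

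**Figure D3:**
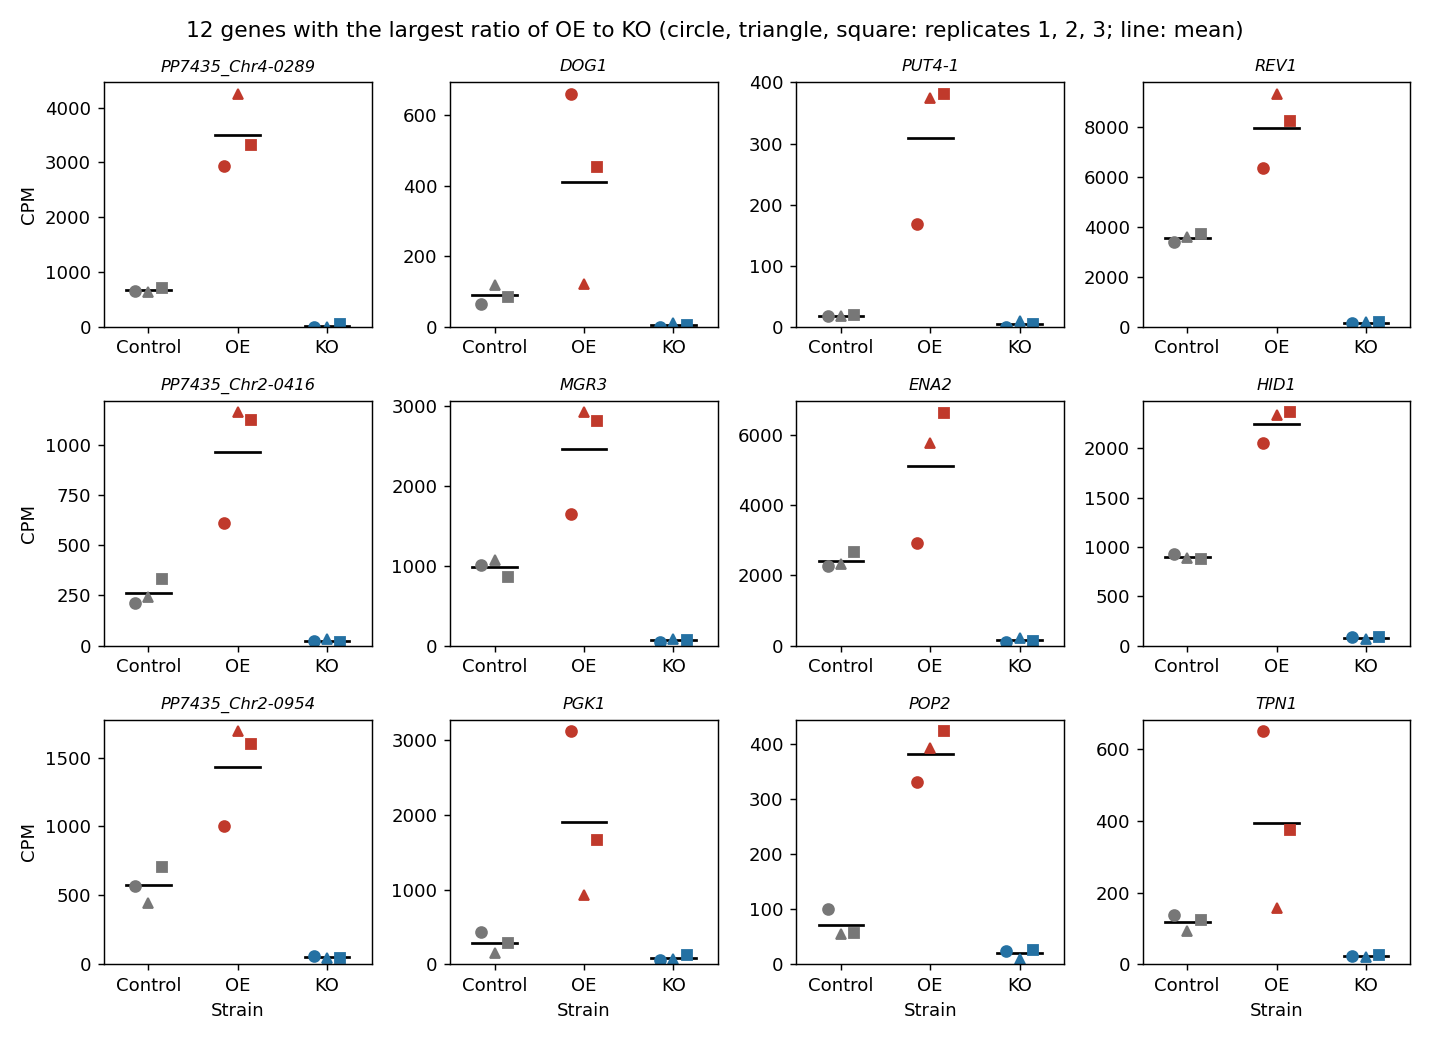
CPM (y axis, linear from 0 and set for each gene) by strain (x axis) for the 12 genes with the largest ratio of mean OE to mean Δ*cra1* (KO) CPM. Circles, triangles and squares are replicates 1, 2 and 3, and lines are strain means. The control points of *HID1* lie between 875 and 931 and its OE points between 2054 and 2366, whereas the OE points of *DOG1*, *PGK1* and *TPN1* are wide apart.

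Among genes of RNA handling and transcription, *POP2* had the largest steps. *POP2* is the deadenylase subunit of the Ccr4-Not complex, which shortens mRNA tails. It had 101, 55.3 and 56.4 CPM in control cultures 1 to 3, against 332, 393 and 424 CPM with extra *CRA1* and 24.0, 10.3 and 26.8 CPM without it. OE libraries were close to each other and more than 3 times the highest control library, while the counts elsewhere were small, at 11, 6 and 6 in control and 5, 2 and 6 in Δ*cra1*. *YSH1*, an endonuclease of mRNA 3′ end formation, had 1.65 times control CPM in OE and 0.545 times in Δ*cra1*, where library 2 at 98.2 CPM nearly reached the lowest control library at 101 CPM. *YHP1*, a homeobox repressor of cell cycle genes, was at 1.80 and 0.599 times the control. *CAT8-2*, named after the zinc cluster activator of genes for growth on non-fermentable carbon, was at 1.68 and 0.505 times. *MOG1*, which binds the Ran GTPase of nuclear import, had 194, 147 and 188 CPM in the control libraries, 449, 742 and 884 CPM in the overexpression libraries and 57.5, 108 and 62.5 CPM in the Δ*cra1* libraries. This small gene of 603 bases was the fourth of the 36 in mean TPM over the 9 libraries, and its highest Δ*cra1* library was 0.736 times its lowest control library.

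Among the kinases and other signalling genes, *KSS1*, a mitogen-activated protein kinase of filamentous growth, was at 4.20 times control CPM in OE and 0.363 times in Δ*cra1*, with 6, 9 and 6 counts in control and 3 to 7 in Δ*cra1* libraries. *SAT4-1*, a kinase of salt tolerance that acts on potassium transport, was at 1.80 and 0.489 times. *HSL7*, an arginine methyltransferase of the bud neck, had the smallest ratio of OE to Δ*cra1* in the set, 2.67, and 2 of its OE libraries, at 154 and 148 CPM, were barely above the highest control library at 147 CPM.

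Genes of membranes, traffic and protein turnover came next. *ERG2*, the sterol C-8 isomerase of ergosterol synthesis, had 258, 267 and 254 CPM in control cultures 1 to 3, against 295, 506 and 662 CPM with extra *CRA1* and 52.7, 56.8 and 35.7 CPM without it. OE library 1 lay close to the control libraries, which were nearly identical, and all Δ*cra1* libraries were far below. *PRE8*, a subunit of the core proteasome, had 304, 350.1 and 207 CPM without modification of the regulator, 402, 401 and 496 CPM on overexpression and 24.0, 56.8 and 71.5 CPM after deletion. Its OE step of 1.51 times was the smallest of the 36, and its control mean was 5.66 times its Δ*cra1* mean. *MRPL10*, a protein of the large mitochondrial ribosomal subunit, had 350.3, 230.3 and 339 CPM in the control libraries, 412, 428 and 554 CPM in the overexpression libraries and 95.8, 98.2 and 169.8 CPM in the Δ*cra1* libraries. Both *PRE8* and *MRPL10* were thus close to the OE limit of the rule but well inside the deletion limit. *ALG9*, a mannosyltransferase of N-glycan assembly, *INP53*, a phosphoinositide phosphatase of trafficking between Golgi and endosome, *RAV1*, an assembly factor of the vacuolar proton pump, and *RVS161-1*, an amphiphysin-like protein of actin and endocytosis, had OE ratios of 2.58, 2.18, 2.77 and 2.01 times control in that order. Their Δ*cra1* ratios were 0.549, 0.529, 0.386 and 0.659 times control.

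Of the genes without a symbol, PP7435_Chr3-0714 was the most abundant not yet described, a hypothetical protein that is not conserved. It had 378, 396 and 536 CPM in the control libraries, 716, 1108 and 676 CPM in the overexpression libraries and 24.0, 82.7 and 44.7 CPM in the Δ*cra1* libraries. OE library 2 stood above the other OE libraries, and Δ*cra1* library 1 was the lowest with 5 counts. The other 5, a gene similar to the *S. cerevisiae* aldehyde reductase YDR541C, a gene with an alpha/beta hydrolase domain, a gene with a metalloprotease domain and a pair of hypothetical proteins, had OE ratios of 1.99 to 3.54 times control and Δ*cra1* ratios of 0.158 to 0.493 times control.

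The rule did not use the order of libraries within a strain, and there the OE libraries were uneven in different ways. In 5 genes, *DOG1*, *SNZ3*, *TPN1*, *PGK1* and *TPI1*, OE library 1 was at least 2 times OE library 2 in CPM, at 5.40, 4.72, 4.14, 3.34 and 2.16 times, and library 3 lay between. *CRA1* had the same order, with a ratio of 4.57 and a 95% counting interval of 3.69 to 5.72. In the other 31 genes the ratio was 0.449 to 1.12, and it was under 1 in 28. *REV1*, with the most counts, was at 0.683 with a counting interval of 0.630 to 0.740, and *ENA2* was at 0.507 with an interval of 0.454 to 0.567. These intervals cover counting error in a single pair of cultures and not the spread between cultures, so they test no difference.

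**Figure D4:**
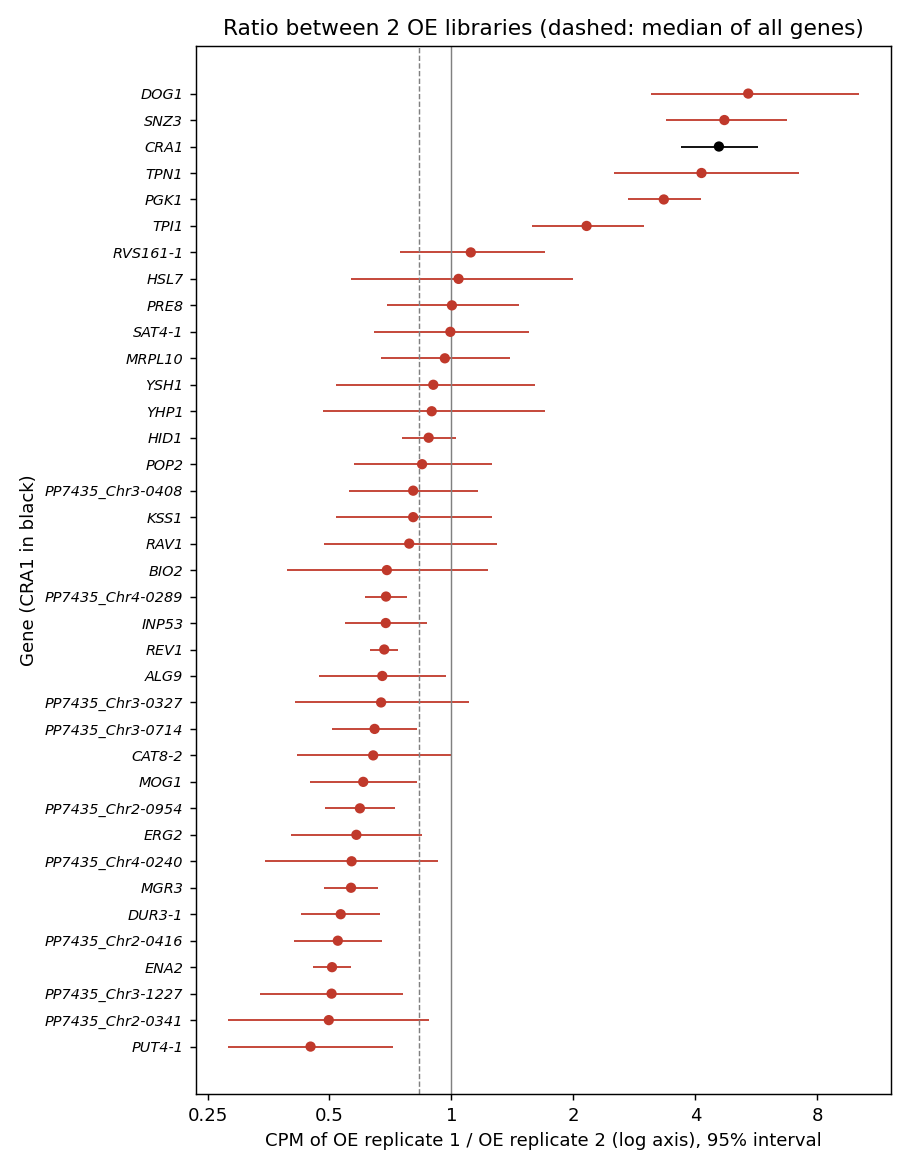
Ratio of CPM in OE library 1 to OE library 2 (x axis, log scale) with 95% counting intervals for *CRA1* (black) and the 36 genes (red). The solid line marks 1 and the dashed line 0.83, the median of all genes past the minimum count. *CRA1* and 5 genes lie at 2.16 or more, and the other 31 genes lie at 1.12 or less.

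Summed over genes, the 5 took 0.701%, 0.201% and 0.407% of OE libraries 1, 2 and 3, and the other 31 took 2.53%, 3.85% and 3.75%. The order of these sums follows from how the 5 genes were picked. In comparison, 482 genes past the minimum count (21.8% of those with a ratio) had 2 or more, with a median of 0.83. Of the 328 genes with OE above control without overlap, 37.8% had 2 or more, with a median of 1.44. Among the 15 genes left out by the fixed list, other than *CRA1* and counting the eGFP reporter, 11 had 2 or more. The median of the 15 was 3.34. The order 1, 3, 2 from high to low was held by 5 of the 36 genes (13.9%) and by 26.4% of all genes past the minimum, and the order 3, 2, 1 by 16 (44.4%) and 20.6%. Total counts, 213700, 114609 and 139067, and the mitochondrial share given above had the order of *CRA1* too, and their part in these ratios was not tested.

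By chromosome, 9 of the 36 genes lay on chromosome 1, 14 on chromosome 2, 7 on chromosome 3 and 6 on chromosome 4. Chromosome 2 held 38.9% of them and 26.0% of all genes past the minimum count. Only PP7435_Chr2-0954 and *RAV1* were neighbours by locus number, and *MOG1* and PP7435_Chr3-0327 were 3 loci apart. Of the 26 loci next to one of the 36 genes that reached the minimum count, 3 passed both ratio limits (11.5%), against 54 of 1760 (3.07%) around all genes past the minimum. In 2 of the 3 cases the neighbours were PP7435_Chr2-0954 and *RAV1* themselves, and the other was *PET18-1* beside *PRE8*. Beside *HID1*, PP7435_Chr3-0802 was at 2.81 times control in OE and 0.200 times in Δ*cra1*, but its strain mean of 16 counts was under the minimum. The median transcript length of the 36 genes was 1210.5 bases, against 1302 for all genes past the minimum.

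Of the 28 carbon metabolism genes of the annotation table, which lists genes that passed the study's own cutoffs and so is selected for change, only *PGK1* and *TPI1* were among the 36, and others of that list, such as *GPM1* and *ENO1*, are at loci left out of the rule. In edgeR's test, 14 of the 23 tested carbon metabolism genes were called higher and 0 lower in OE, and 11 of 25 were called lower and 5 higher in Δ*cra1*. Their median log2 changes were 2.09 in OE and −0.98 in Δ*cra1*. Over the whole annotation table, 129 of 527 genes were called higher and 15 lower in OE, 184 of 601 were called lower and 205 higher in Δ*cra1*, and the medians were 0.41 and 0.28. Over all genes tested the medians were 0.02 and 0.01. The OE medians of the amino acid metabolism genes, 1.92, and of the cytosolic ribosomal protein genes, 1.79, were near that of the carbon metabolism genes. Of 50 transcription factor genes the set held *YHP1*, *YSH1* and *CAT8-2*, of 43 amino acid metabolism genes *PUT4-1*, of 38 mitochondrial genes *MRPL10* and of 21 lipid genes *ERG2*. Of 19 cytosolic ribosomal protein genes it held 0. No functional group was given for 23 of the 36 genes, nor for 443 of the 714 genes of the whole table, which is a like share.

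At the limits of the rule, *PRE8* and *MRPL10* were just inside the OE limit at 1.51 and 1.52 times control, and *SSN3* and PP7435_Chr3-0308 just outside at 1.44 and 1.42. On the deletion side *RVS161-1* and *HSL7* were just inside at 0.659 and 0.639 times control and PP7435_Chr4-0664 just outside at 0.712. In counts, *YHP1* was just inside with a strain mean of 22.3.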

How the data were processed

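Poly(A)-enriched RNA of 9 cultures was sequenced on an Illumina HiSeq. The submitters' processing notes name Trim Galore 0.4.2, FastQC 0.11.2, SAMtools 1.5, Picard 2.17.3-3 and kallisto 0.44.0. The authors deposited kallisto's estimated counts per sequence without normalization, and TPM, which kallisto derives from the same counts with a correction for effective length. Further deposited tables of normalized counts for pairs of strains were not used, nor were fold changes and p-values of the annotation table, from which only names, descriptions and functional groups were taken. Of the 5344 identifiers, 714 were found in it and 0 in the reference table of gene names.

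CPM were computed from library totals. Counts were rounded and tested with edgeR 4.0.16 in R 4.3.3 (filterByExpr, TMM, quasi-likelihood test, Benjamini-Hochberg adjustment), separately for OE and Δ*cra1* against control. The scripts were tested on simulated data. DESeq2 1.42.0, limma 3.58.1 on log2(TPM + 1) and log2(TPM + 0.1), other scaling, other filters, a replicate block and each library left out were alternatives. The genes and lists were chosen with earlier results of these data known. All genes with a symbol are named, and values per library are given for the 12 with the largest OE to Δ*cra1* ratio and the 12 with the highest mean TPM. P-values cover the spread between cultures of 1 transformant. No sequences are shown, since no genome was used here.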

Additional observations from a re-analysis of the deposited data

How the results depend on the processing

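No fitted change of the 36 genes reversed under any alternative, which their choice by non-overlapping libraries largely fixed in advance. The rule gave 36 genes, 23 with a minimum of 50 counts and 21 with ratios of 2 and 0.5, and 34 to 46 with a library left out. With DESeq2 size factors 30 of the 36 were kept, with TPM 33 and with TMM factors all 36. The genes lost with DESeq2 size factors were *ENA2*, *ERG2*, *PRE8*, *MRPL10*, *HSL7* and PP7435_Chr2-0341. Those lost with TPM were *PGK1*, *RVS161-1* and *HSL7*. Of the OE calls, 28 became 14 of 16 genes tested with a mean of at least 50 counts, beside 48 of all 688. By limma they became 3 on log2(TPM + 1), beside 66 of 5269, and 3 on log2(TPM + 0.1), beside 80 of 5269. With a library left out they were 10 to 29, and calls over all genes ranged from 40 of 2292 to 515 of 2266. By limma 28 of the 36 genes had an unadjusted p under 0.05 on either scale. No such count was taken over all genes, so nothing is read from it. Of the deletion calls, 24 became 4 of 4 genes tested with a mean of at least 50 counts, beside 44 of all 856. By limma they became 13 on log2(TPM + 1), beside 80 of 5307, and 11 on log2(TPM + 0.1), beside 73 of 5307. With a library left out they were 23 to 28, and calls over all genes ranged from 173 of 2127 to 240 of 2978. The causes were not tested, beyond the smaller number of genes tested at 50 counts. The median log2 change of all genes also moved. In the deletion contrast it was 0.01 in the main fit, 0.15 with library totals alone, 0.18 with DESeq2 and 0.21 without a filter. By limma it was 0.55 on log2(TPM + 1) and 0.59 on log2(TPM + 0.1). In the OE contrast the values in the same order were 0.02, −0.08, 0.31, 0.31, 0.43 and 0.46. Deviations of same-numbered cultures had correlations of 0.31, 0.26 and 0.088 between control and OE. They were −0.20, −0.053 and −0.093 between control and Δ*cra1*, and −0.48, −0.21 and −0.038 between OE and Δ*cra1*. The main fits did not pair the cultures, and whether the numbers link control and OE cultures is not settled by these values. With the replicate number as a block, 30 of the 36 genes were called in OE. Over all genes the block gave 281 OE calls of 1986, against 142 in the main fit. In Δ*cra1* it gave 25 of the 31 genes tested, beside 201 of 2392. The low totals limit genes with under about 10 counts per library, among them *DOG1*, *PUT4-1*, *POP2* and *KSS1*.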
